A study of Homo sapiens with 4 samples.

Results

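Cancer-testis antigens are proteins that are normally made almost only in germ cells and that some tumours make again, where their peptides can be seen by T cells. Many of their genes lie on the X chromosome in families of near-identical copies, and in somatic cells their promoters are usually kept silent by DNA methylation. The genes described here were 10 such X-linked antigen genes from 5 families, namely PAGE1, PAGE2 and PAGE5, GAGE2A and GAGE12J, SSX1, SSX2 and SSX4, CTAG2, and CT45A1. A gene was found by requiring that the text before the first bar of a row name in the gene table equalled its symbol, and all entries under that symbol were summed. Of the 10 genes, 8 were listed among 43296 gene names. SSX4 and GAGE2A had no row under their own names, and 0 names that join several genes contained any of the 10.

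The study measured gene and transposable element (TE) transcripts in single cells of the established human lines H1299, a non-small cell lung cancer line, and HCT116, a colorectal cancer line, with the 10x Genomics 5′ assay. In each line 1 library came from cells given the solvent DMSO and 1 from cells given 500 nM decitabine (DAC, an inhibitor of DNA methyltransferases) for 72 h together with 500 nM SB939 (SB, an inhibitor of histone deacetylases) for 18 h, with the compound medium renewed every 24 h. Both agents were present in each treated library, called DAC+SB or treated here, so their effects cannot be told apart, and cells given DMSO alone are called untreated. Cells were at passage 5 to 10 in all groups. With 1 library per group no difference within a line could be tested, the lines were not pooled for a test, and every interval below is a 95% interval for counting error only.

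The libraries held between 3578 and 4327 cells and between 38927267 and 64524196 gene and TE counts, the HCT116 DAC+SB library being the shallowest. Cells had a median of 17369.5 and 15784.5 counts in H1299 (DMSO first) and of 16257.5 and 8449 in HCT116. A list of 10 mesenchymal genes was higher in H1299 and a list of 10 epithelial genes was higher in HCT116 in both treatments, at 2907 and 1332 against 104 and 306 CPM (counts scaled to the library's sum of gene and TE counts) for the first and at 0.573 and 21.6 against 183 and 99.9 CPM for the second. Each summed list was higher with DAC+SB than with DMSO in the line it was not chosen for. In H1299 all 10 epithelial genes were higher, but in HCT116 only 6 of the 10 mesenchymal genes were and 4 were lower, and VIM alone went from 47.0 to 265 CPM. The part of these changes in the results below was not tested. GAGE12J, SPANXD and SPANXN3, which had 1551, 198 and 292 counts in treated HCT116 cells, had 5, 0 and 0 in treated H1299 cells. PAGE4 and SPANXB1, with 331 and 396 counts in treated HCT116 cells, had 57 and 85 in treated H1299 cells. Mixing between libraries was not tested, and the limits of these counts are given below. Mitochondrial counts were highest in treated HCT116 cells, with a median of 18.6% per cell against 15.8% in untreated HCT116 and 8.33% and 8.87% in H1299, and with 1086 of 4327 cells above 25%. Cell barcodes found in more than 1 library numbered 131.

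Promoters of these genes are shown first because the treatment acts on DNA methylation, which sits on CG dinucleotides. The sequences are the 250 bases before the annotated start in RefSeq (GRCh38.p14), on the strand of the gene, with each CG in capitals. PAGE1, PAGE2, PAGE5 and GAGE12J are the genes with the most counts in treated HCT116 cells, and SSX1 is the one with fewest CG. The windows are chrX:49695985-49696234 (minus strand) for PAGE1, chrX:55088768-55089017 for PAGE2, chrX:55220096-55220345 for PAGE5, chrX:49321787-49322036 for GAGE12J and chrX:48255142-48255391 for SSX1, the last 4 on the plus strand.
PAGE1: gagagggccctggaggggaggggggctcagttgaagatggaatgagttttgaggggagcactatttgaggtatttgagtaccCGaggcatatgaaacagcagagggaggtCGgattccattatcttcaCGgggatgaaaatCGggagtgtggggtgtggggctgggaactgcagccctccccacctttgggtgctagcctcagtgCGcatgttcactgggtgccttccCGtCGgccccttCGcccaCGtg
PAGE2: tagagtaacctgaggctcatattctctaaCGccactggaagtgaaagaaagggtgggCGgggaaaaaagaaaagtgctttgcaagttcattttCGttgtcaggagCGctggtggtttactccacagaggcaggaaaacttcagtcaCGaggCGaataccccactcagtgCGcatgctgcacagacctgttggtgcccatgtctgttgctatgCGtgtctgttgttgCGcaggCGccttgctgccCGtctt
PAGE5: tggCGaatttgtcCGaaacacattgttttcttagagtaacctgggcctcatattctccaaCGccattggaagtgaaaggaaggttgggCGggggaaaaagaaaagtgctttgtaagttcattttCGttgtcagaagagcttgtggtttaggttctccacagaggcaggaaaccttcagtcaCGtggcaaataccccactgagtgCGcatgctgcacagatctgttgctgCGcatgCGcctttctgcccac
GAGE12J: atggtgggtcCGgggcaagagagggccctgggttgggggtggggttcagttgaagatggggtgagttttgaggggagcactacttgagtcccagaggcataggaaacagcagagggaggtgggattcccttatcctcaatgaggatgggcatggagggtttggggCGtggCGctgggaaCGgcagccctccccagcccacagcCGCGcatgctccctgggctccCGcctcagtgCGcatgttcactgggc
SSX1: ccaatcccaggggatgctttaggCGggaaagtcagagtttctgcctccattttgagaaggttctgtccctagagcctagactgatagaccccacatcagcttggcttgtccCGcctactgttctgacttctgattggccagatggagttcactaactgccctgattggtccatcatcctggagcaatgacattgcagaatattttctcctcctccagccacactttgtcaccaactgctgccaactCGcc

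Promoters were found for 9 of the 10 genes, all but CTAG2. They held 3 CG in SSX1, 7 in SSX2 and CT45A1, 8 in GAGE12J and GAGE2A, 9 in PAGE1 and PAGE5, and 11 in PAGE2 and SSX4. The median over all 35116 promoters of this length was 11 CG, with quartiles of 3 and 23. All 9 thus lay at or below that median and at or above the lower quartile, as the plot of CG content shows. The GAGE12J and GAGE2A windows were identical over 250 of 250 bases, and PAGE2 and PAGE5 agreed at 138 of 219 bases in the best alignment without gaps (63.0%). An alignment with gaps was not made, so likeness beyond an inserted base is missed.

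**Figure D1:**
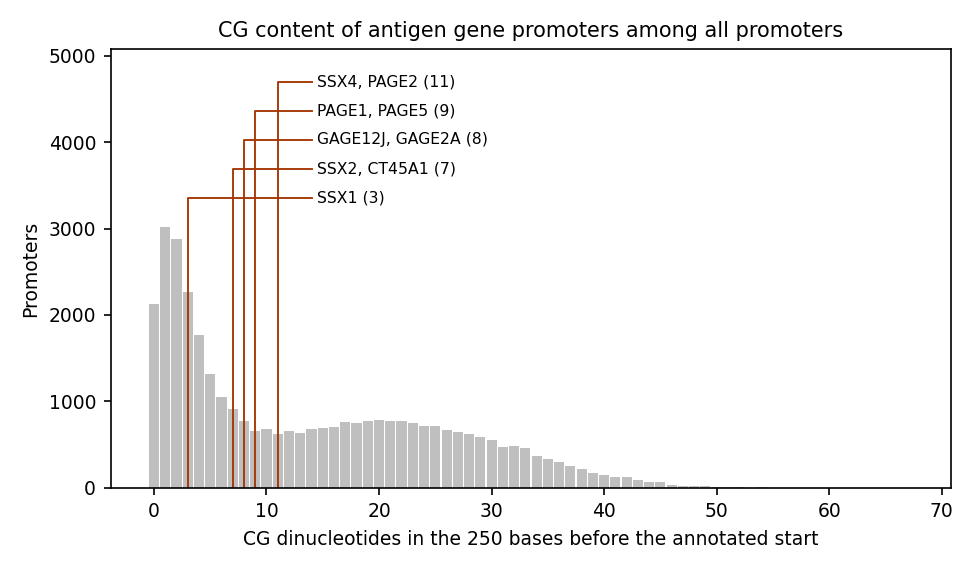
Number of RefSeq promoters (vertical axis) by the number of CG dinucleotides in the 250 bases before the annotated start (horizontal axis). Grey bars are all 35116 promoters, and brown lines mark the 9 antigen genes found, at 3 to 11 CG.

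A set of 3 short motifs was searched on both strands. The GC box GGGCGG was present in PAGE2 and PAGE5, 2 of 9 antigen promoters against 42.6% of all promoters. The ETS core CCGGAA was present in 0 of 9 (14.5% of all) and TATAAA in 0 of 9 (10.7% of all). After the sequences had been read, the letters TGCGCATG were also searched, which are part of the recognition sequence of NRF1, a transcription factor whose binding is blocked by DNA methylation. They were found in 5 of 9 antigen promoters, namely PAGE1, PAGE2, PAGE5, GAGE12J and GAGE2A, against 1.81% of all promoters (636 of 35116). Their first base lay 47 bases before the start in PAGE1, 83 in PAGE2, 18 in GAGE12J and GAGE2A, and 48 and 23 in PAGE5, which held them at 2 places. The SSX and CT45A1 windows did not hold these letters. A match describes the letters in this window only. The GAGE copies share their sequence. The windows of PAGE2 and PAGE5, and those of PAGE1 and GAGE12J, also share long runs of letters. The 5 promoters are therefore not independent, and nothing is read from their number beside the share of all promoters.

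All 10 genes lie on chromosome X (GENCODE v29, GRCh38), and all are protein-coding. SSX1 (48255317 to 48267444), SSX4 (48383516 to 48393347), GAGE12J (49322057 to 49329384), GAGE2A (49589529 to 49596827) and PAGE1 (49687450 to 49695993) lie close together. SSX2 (52696896 to 52707189), PAGE2 (55089008 to 55092842) and PAGE5 (55220355 to 55224108) follow on the same arm, and CT45A1 (135713453 to 135723539) and CTAG2 (154651972 to 154653579) lie on the long arm. GENCODE and RefSeq place some starts differently. The RefSeq windows of SSX1 (to 48255391) and CT45A1 (135713389 to 135713638), for example, reach past the GENCODE starts and into the genes as placed here. Of the X-linked genes that had 100 counts in either library of a line, 13.6% of 434 were at least 4-fold higher with DAC+SB in H1299 and 17.4% of 413 in HCT116.

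How well a count can be given to 1 gene differed between members. Every annotated transcript was split into 50-base pieces and compared with those of 65 genes of these families. All pieces of PAGE1 were its own, as were 95.6% for PAGE5, 91.2% for SSX1, 61.4% for PAGE2 and 56.9% for CTAG2. CT45A1 (16.3%), GAGE2A (14.8%) and GAGE12J (10.2%) shared most of their sequence with other copies, and SSX2 and SSX4 had 0% of their own because SSX2B and SSX4B carry all of it. Counts named GAGE12J, CT45A1 or SSX2 can therefore come from other copies. The same holds for CTAG2, since none of its pieces in the first 200 bases of transcripts is its own. The absence of rows for SSX4 and GAGE2A says nothing about their transcription.

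In H1299 the PAGE genes, SSX1 and CTAG2 were at least 4-fold higher with DAC+SB, and in HCT116 the PAGE genes, GAGE12J, SSX1 and CTAG2 were. The rule required at least 100 counts in the higher library, which 6 of the 8 listed genes reached in each line. Past 4-fold were 5 genes in H1299, where CT45A1 was not, and 6 in HCT116. Over all genes, 11% of 14610 in H1299 and 9.63% of 13539 in HCT116 were at least 4-fold higher. None of the antigen genes with 100 counts was at least 4-fold lower, which held for 0.349% and 3.69% of all genes. Since none of the 8 genes had 100 counts in a DMSO library, a gene could reach the minimum only by being high after treatment, and these counts are a description. The median log2 ratio was -0.07 over all genes tested in H1299 and -0.23 in HCT116.

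The gene table had entries with and without a number after the symbol. Numbered entries were listed only from 10 counts upward in each library and others from 1, so a numbered entry that is missing is not a known 0. Numbered entries held between 71.2% and 89.3% of the counts of PAGE1, PAGE2 and PAGE5 in the treated libraries. Where a gene had no count in a library, the fold below is a bound computed against 3 counts in that library and assumes that no unlisted entry had counts. When numbered entries were used only where both libraries of a line listed them, 4 genes in H1299 (PAGE2, PAGE5, SSX1 and CTAG2) and 3 in HCT116 (PAGE1, PAGE5 and GAGE12J) were at least 4-fold higher with 100 counts. Of all genes, 8.30% and 9.82% were past 4-fold in either direction under that setting.

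The PAGE genes code for small acidic proteins of the family that also includes GAGE. PAGE5 had no count in untreated cells of either line (0 and 0), 577 counts in treated H1299 cells and 1776 in treated HCT116 cells, or 9.24 (8.50 to 10.0) and 45.6 (43.5 to 47.8) CPM. It had the most counts of the 8 listed genes in both treated libraries. If the unlisted numbered entry had no counts in untreated cells, the increase was at least 199-fold in H1299 and at least 953-fold in HCT116. With that entry set to 9 counts in untreated cells, the log2 ratios were 6.05 and 8.31. From entries without a number alone the bounds were 5.12 and 8.10 on the log2 scale.

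PAGE2 likewise had 0 counts without treatment in either line and had 474 in treated H1299 cells (7.59 CPM, 6.92 to 8.31) and 638 in treated HCT116 cells (16.4 CPM, 15.1 to 17.7). If the unlisted numbered entry had no counts in untreated cells, the increase was at least 163-fold and at least 342-fold. With that entry set to 9 counts in untreated cells, the log2 ratios were 5.77 and 6.83. Without numbered entries they were at least 5.18 and 5.19. Its near copy PAGE2B differed from it in the untreated H1299 cells, where PAGE2B had 398 counts. PAGE2B had 1571 counts in H1299 DAC+SB, a log2 ratio of 2.03 (1.87 to 2.19), and went from 0 to 771 counts in HCT116. The 2 genes share 38.6% of the PAGE2 pieces, but 92.8% of the pieces in the first 200 bases of PAGE2 transcripts are its own.

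PAGE1 had 0 counts in untreated and 272 in treated H1299 cells (4.36 CPM, 3.85 to 4.91), and 17 in untreated (0.271 CPM, 0.158 to 0.435) and 1132 in treated HCT116 cells (29.1 CPM, 27.4 to 30.8). If the unlisted numbered entry had no counts in untreated cells, PAGE1 was at least 93.7-fold higher in treated H1299 cells. On the same assumption it was 107-fold (66.6 to 185) higher in treated HCT116 cells. With that entry set to 9 counts in untreated cells, the log2 ratios were 4.97 and 6.13. Without numbered entries the H1299 bound was 3.82 and the HCT116 log2 ratio 4.39. The 17 counts in untreated HCT116 lay in only 3 of 3658 cells, with 11, 4 and 2 counts. None of these cells shared its barcode with another library, and none had a count of another antigen gene described here. The cell with 11 counts had 21426 counts in all, 0.471% of them from TE.

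**Figure D2:**
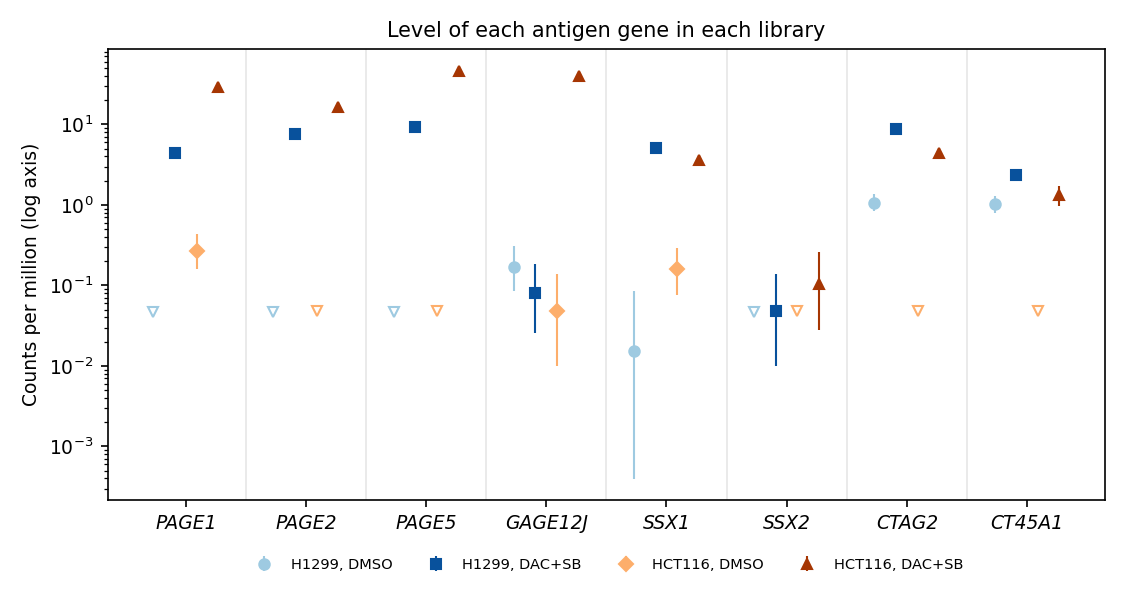
Level of each of the 8 listed antigen genes in CPM (log axis) in each of the 4 libraries. Bars are exact Poisson 95% intervals, which cover counting error only, and open triangles stand at 3 counts for a library with 0. The PAGE genes and GAGE12J are highest in treated HCT116 cells, at 16.4 to 45.6 CPM.

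GAGE12J, a member of the GAGE cluster that is repeated in tandem, was high in 1 library only. It had 11 counts in untreated (0.170 CPM) and 5 in treated H1299 cells (0.0801 CPM), and 3 in untreated (0.0479 CPM) and 1551 in treated HCT116 cells (39.8 CPM, 37.9 to 41.9). The HCT116 ratio was 832-fold (284 to 4038), or 9.70 (8.15 to 11.98) on the log2 scale and 6.54 without the numbered entry, which only that library listed. The H1299 log2 ratio was -1.09 (-2.97 to 0.55), an interval that includes no change. The 3 counts in untreated HCT116 lay in 1 cell, and the 11 in untreated H1299 in 11 cells. Another GAGE gene, GAGE1, had 209 counts in untreated and 121 in treated H1299 cells (log2 ratio -0.74, -1.08 to -0.41), against 0 and 23 in HCT116. GAGE counts were thus already present in untreated H1299 cells under a different copy name, and which copies gave them cannot be told apart here. In GENCODE v29 the span of GAGE1 (49589496 to 49608536) holds that of GAGE2A (49589529 to 49596827) on the same strand. Counts named GAGE1 can therefore include reads of GAGE2A, which had no row under its own name.

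SSX proteins are nuclear repressors, best known from the SS18-SSX fusions of synovial sarcoma. SSX1 had 1 count in untreated and 322 in treated H1299 cells (5.16 CPM, 4.61 to 5.75), and 10 in untreated (0.160 CPM) and 139 in treated HCT116 cells (3.57 CPM, 3.0 to 4.22). Its log2 ratio was 8.38 (5.89 to 13.69) in H1299, where the interval is wide because it rests on 1 count, and 4.48 (3.56 to 5.58) in HCT116. With the unlisted numbered entry set to 9 counts these values were 5.06 and 3.56, and without numbered entries the HCT116 value was 3.04. SSX2 had 0 counts with DMSO in either line and 3 and 4 counts with DAC+SB, too few for a comparison. SSX3, a gene of the same family outside the 10, had no count without treatment and 414 (H1299) and 289 (HCT116) counts after it.

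CTAG2 codes for LAGE-1, a close relative of NY-ESO-1. It had 69 counts in untreated (1.07 CPM, 0.832 to 1.35) and 551 in treated H1299 cells (8.83 CPM, 8.10 to 9.59), and 0 in untreated and 173 in treated HCT116 cells (4.44 CPM, 3.81 to 5.16). Treated H1299 cells were 8.25-fold (6.42 to 10.8) higher and treated HCT116 cells at least 92.8-fold higher, or at least 5.39 on the log2 scale without the numbered entry and 4.95 with that entry set to 9 counts. The 69 counts in untreated H1299 lay in 69 different cells, unlike the counts of PAGE1 in untreated HCT116. CTAG1A and CTAG1B, the NY-ESO-1 genes, had 18 and 17 counts in untreated and 16 and 14 in treated H1299 cells. In HCT116 they had 0 and 0 in untreated and 1 and 3 in treated cells. None of the CTAG2 pieces in the first 200 bases is its own, and 2 other genes share CTAG2 pieces, CTAG1A the most. Counts named CTAG2, and the folds above, can therefore include reads of those genes.

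CT45A1 belongs to a testis antigen family on the long arm. It had 66 counts in untreated (1.02 CPM, 0.791 to 1.30) and 147 in treated H1299 cells (2.35 CPM, 1.99 to 2.77), and 0 in untreated and 51 in treated HCT116 cells (1.31 CPM, 0.975 to 1.72). The log2 ratio was 1.20 (0.77 to 1.64) in H1299, below the 4-fold threshold. In HCT116 the increase was at least 27.4-fold but from under 100 counts, and 2.42 on the log2 scale with unlisted numbered entries set to 9 counts.

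Summed over the 8 listed genes, counts went from 147 to 2351 in H1299 and from 30 to 5464 in HCT116. The summed level was 2.28 (1.92 to 2.68) and 37.7 (36.2 to 39.2) CPM in H1299, and 0.479 (0.323 to 0.684) and 140 (137 to 144) CPM in HCT116. The log2 ratios were 4.05 (3.81 to 4.30) and 8.20 (7.68 to 8.76). Without cells whose barcode occurred in more than 1 library they were 4.03 and 8.22, and without cells above 25% mitochondrial counts 4.04 and 8.13. Without GAGE12J they were 4.16 and 7.87. Handling of numbered entries changed them most, to 2.99 and 5.94 with such entries used only where both libraries of a line listed them. With unlisted numbered entries set to 9 counts they were 3.67 and 6.43. The untreated sum was higher in H1299 and the treated sum was higher in HCT116.

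The treated libraries also differed in which genes led. PAGE1 was 6.67-fold (5.84 to 7.65), PAGE5 4.94-fold (4.49 to 5.43), GAGE12J 497-fold (213 to 1534) and PAGE2 2.16-fold (1.91 to 2.44) higher in HCT116. In the other direction, CTAG2 was 1.99-fold (1.67 to 2.37), CT45A1 1.80-fold (1.30 to 2.52) and SSX1 1.44-fold (1.18 to 1.78) higher in H1299. Of the GAGE12J counts in treated HCT116 cells, 1377 lay in a numbered entry that treated H1299 cells did not list, and without it GAGE12J was 55.8-fold (23.5 to 174) higher. Of the CT45A1 counts in treated H1299 cells, 30 lay in a numbered entry that treated HCT116 cells did not list. Without it the CT45A1 ratio of HCT116 over H1299 was 0.699 (0.493 to 0.979), an interval that ends close to no difference. The intervals of these 7 genes excluded no difference, whereas that of SSX2 (3 and 4 counts) included it. These intervals take each count as independent, so clumping of counts in cells is not covered and small folds remain uncertain. Counts under names of 1 family did not all go in 1 direction, since GAGE1 was 3.28-fold (2.09 to 5.37) and PAGE2B 1.27-fold (1.16 to 1.39) higher in H1299. For GAGE this concerns copy names only, because the copies that gave the counts cannot be told apart. Of the 7 genes with 100 counts in a treated library, 3 were at least 4-fold higher in HCT116, against 4.65% of 14875 genes, and 0 were at least 4-fold higher in H1299, against 8.97%. GAGE12J reached 100 counts only in treated HCT116 cells and CT45A1 only in treated H1299 cells. The genes were also chosen with earlier results of these data known, so these counts are a description. Whether replicate cultures would differ in the same way was not tested.

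The share of cells with a count was compared after each cell was thinned to 3300 counts, which left out 402 treated HCT116 cells and no others. PAGE5 was counted in 105 of 3726 treated H1299 cells (2.82%, 2.31 to 3.40) and in 459 of 3925 treated HCT116 cells (11.7%, 10.7 to 12.7). GAGE12J was counted in 433 of 3925 treated HCT116 cells (11.0%, 10.1 to 12.1) and PAGE1 in 327 (8.33%, 7.49 to 9.24). Without thinning the shares in treated HCT116 were 23.9% for PAGE5, 23.4% for GAGE12J and 17.2% for PAGE1. The genes were therefore counted in a minority of treated cells at this depth, and a cell without a count is not shown to lack the transcript. For PAGE5, 0 of 3578 untreated H1299 and 0 of 3658 untreated HCT116 cells had a listed count. No cell type that should lack these genes was in a treated library, so counts from free RNA were not measured.

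**Figure D3:**
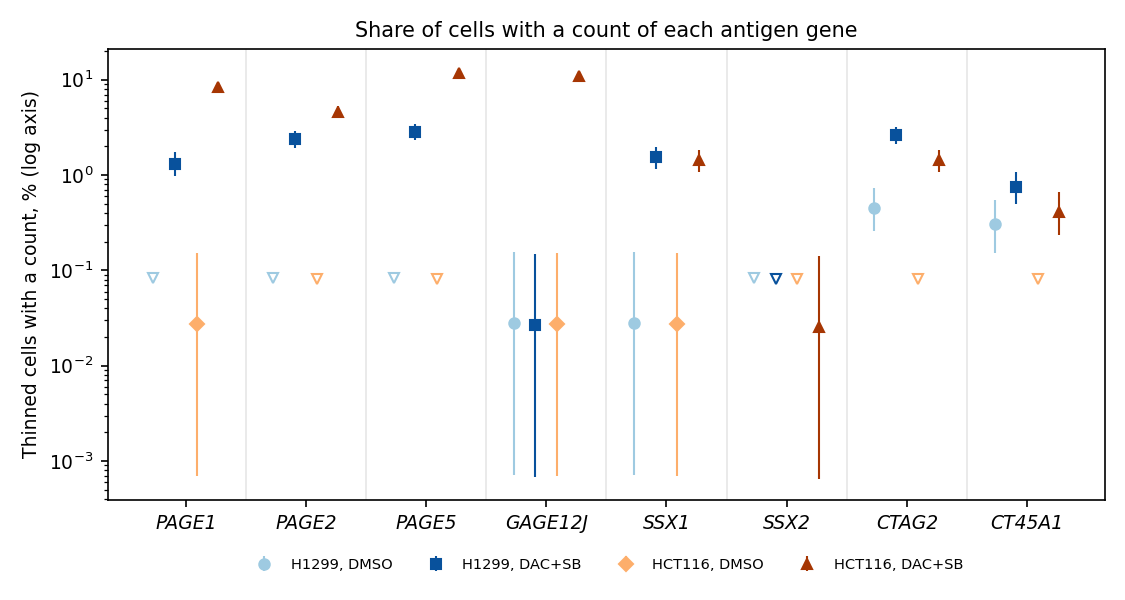
Share of thinned cells with a count of each antigen gene (percent, log axis) in each of the 4 libraries, with exact Clopper-Pearson 95% intervals. Open triangles stand at 3 cells for libraries with 0. PAGE5 and GAGE12J reach 11.7% and 11.0% of treated HCT116 cells.

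At least 1 of the 8 genes was counted in 29 of 3578 thinned untreated H1299 cells (0.811%, 0.543 to 1.16) and in 405 of 3726 treated ones (10.9%, 9.89 to 11.9). In HCT116 the numbers were 3 of 3658 (0.0820%, 0.0169 to 0.239) and 1230 of 3925 (31.3%, 29.9 to 32.8). Without thinning the 4 shares were 3.91%, 36.5%, 0.328% and 50.5%. A second gene was counted in few cells. In treated HCT116, 258 cells (6.57%, 5.82 to 7.39) had 2 or more of the genes, beside 197 from the product of their shares, and 6 cells had 4. In treated H1299, 21 cells had 2 or more, beside 18.8, and 1 cell had 3. Both untreated libraries had 0 such cells. Other sets of genes were not compared with their product in this way.

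**Figure D4:**
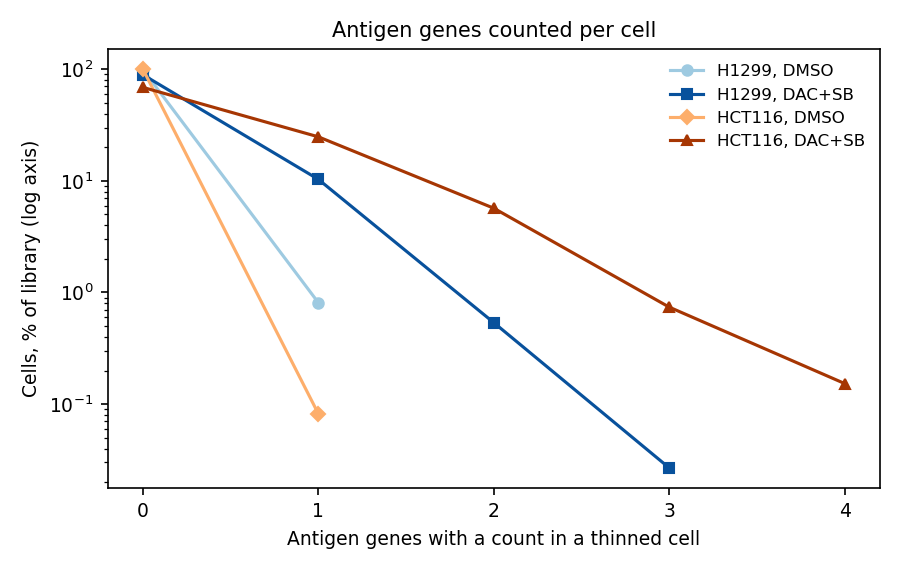
Percent of thinned cells (log axis) by the number of antigen genes counted in the cell, for the 4 libraries. Lines join the values of a library, and numbers of genes with 0 cells are not drawn. Treated HCT116 cells reach 4 genes and treated H1299 cells 3, and no untreated cell had more than 1.

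Among gene pairs with at least 50 cells each in treated HCT116, 13 of 15 were counted together in more cells than the product of their shares, with a median of 1.55 times that product and a range of 0.387 to 2.50. PAGE1 and GAGE12J were counted together in 59 cells beside a product of 36.1, PAGE2 and PAGE5 in 39 beside 21.2, and PAGE1 and PAGE2 in 29 beside 15.1. The 2 pairs below their product were CTAG2 with PAGE1 (4 cells beside 4.67) and CTAG2 with PAGE2 (1 beside 2.58). In treated H1299, 3 of 6 pairs were above and 3 below, from 0 to 5 cells each, and the 3 below all included CTAG2. Pairs share genes and cells, so they are not independent, and doublets were not removed. Pairs of other genes were not counted in this way, so these values are not shown to be particular to the antigen genes.

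The spread of counts over cells was compared with that of other genes. In treated HCT116 cells the variance of PAGE1 over its mean was 1.30, above 97.2% of 1404 genes of like mean, whose median was 1.10. The ratio was 1.22 for PAGE2, 1.24 for PAGE5 and 1.21 for GAGE12J, above 95.7%, 93.0% and 91.3% of their like genes. CTAG2 was at 1.05, above 37.8%, and SSX1 at 1.09, above 57.1%. PAGE1, PAGE2, PAGE5 and GAGE12J were thus among the more uneven genes of their level in this library, and CTAG2 and SSX1 were not. In treated H1299 the ratio was 1.10 for PAGE2 and PAGE5 alike, above 84.0% and 82.7% of like genes, 1.08 for SSX1, above 74.5%, and 1.03 for CTAG2, above 33.7%.

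Treated cells with more TE counts more often had a count of any of the 8 genes, though not of each gene. When thinned cells were split by TE counts into 4 groups of equal size, 8.69% (6.96 to 10.7) of the lowest and 14.7% (12.5 to 17.2) of the highest group had an antigen count in H1299. In HCT116 the shares were 23.6% (21.0 to 26.4), 31.1%, 32.6% and 38.0% (35.0 to 41.1) from the lowest group to the highest. PAGE1 was counted in 55 cells of the lowest and 114 of the highest HCT116 group, and GAGE12J in 82 and 140. SSX1 (9 and 14) and CTAG2 (9 and 13) had few cells in either group. In treated H1299 cells PAGE5 was counted in 17 cells of the lowest and 41 of the highest group, and SSX1 went the other way, with 20 and 15. Before thinning, the median count per HCT116 cell was 10108.5 in the lowest group and 7913 in the highest, and in H1299 it was 16235.5 and 15806. The part of this depth difference, and of differences in cell quality, was not tested.

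**Figure D5:**
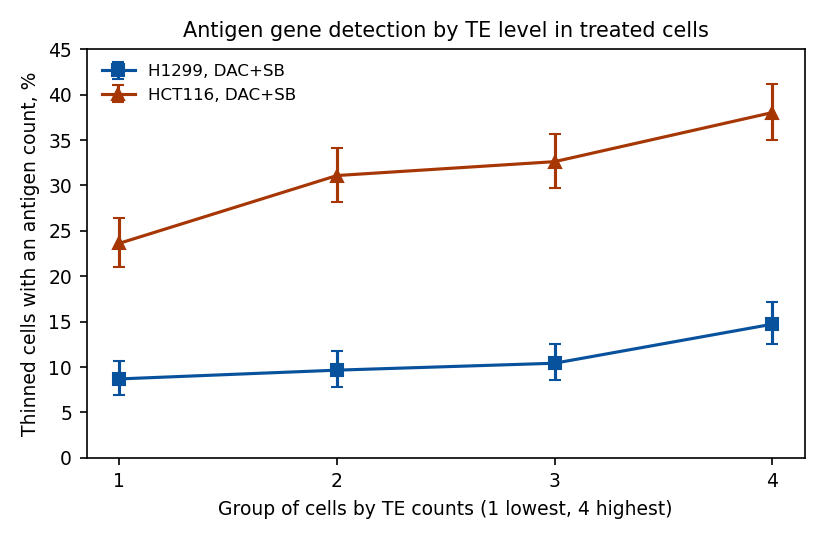
Percent of thinned treated cells with a count of any of the 8 antigen genes (vertical axis) in 4 groups of cells ordered by TE counts (horizontal axis), with exact Clopper-Pearson 95% intervals. The share is 8.69% to 14.7% in H1299 and 23.6% to 38.0% in HCT116.

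A further 41 gene names began with GAGE, PAGE, XAGE, SSX, CTAG, CT45A or SPANX. In H1299, 8 of them reached 100 counts, 4 were at least 4-fold higher and 0 lower, against 11% and 0.349% of all genes, with a median log2 ratio of 1.09, bounds included. In HCT116, 11 reached 100 counts, 10 were higher and 0 lower, against 9.63% and 3.69% of all genes, with a median of 6.73. Most treated HCT116 counts of each of the 10 higher genes lay in numbered entries that untreated HCT116 did not list. Examples were 692 of 771 for PAGE2B and 219 of 331 for PAGE4, and the same held for SSX3 and XAGE3 in H1299. A missing numbered entry is not a known 0, and ratios without these entries were not computed for relatives. In HCT116 each of the 11 except SSX2IP, and in H1299 the higher genes CTAGE1, SSX3 and XAGE3, reached 100 counts only after treatment, so these counts are a description. Some of these names begin with the same letters but are not copies of these families. Examples are SSX2IP, a centrosomal protein gene with log2 ratios of -0.50 and -0.85, and CTAGE1, which went from 4 to 107 counts in H1299. XAGE3 had no count without treatment and 146 (H1299) and 164 (HCT116) counts after it.

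Several relatives were counted after treatment in HCT116 and hardly in H1299. SPANXD, SPANXN3, SPANXN5 and SPANXC, sperm nuclear protein genes, had 198, 292, 194 and 322 counts in treated HCT116 cells against 0, 0, 1 and 2 in treated H1299 cells. Of these HCT116 counts, 177, 251, 169 and 321 lay in numbered entries that treated H1299 cells did not list. Such a missing entry is not a known 0, so the size of the contrast is uncertain. PAGE4, known from prostate, had 331 counts in treated HCT116 cells and 57 in treated H1299 cells, and SPANXB1 had 396 and 85. XAGE1A and XAGE1B went the other way, with 238 and 252 counts already in untreated H1299 cells and 255 and 242 after treatment, whereas HCT116 went from 0 to 104 and from 0 to 78. Their log2 ratios in H1299 were 0.15 (-0.11 to 0.41) and -0.01 (-0.27 to 0.25).

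The 25 other antigen genes of a list of MAGE, PRAME and germ cell genes were all listed. In H1299, 18 reached 100 counts, 8 were at least 4-fold higher, 0 lower and 10 neither, with a median log2 ratio of 0.63, where 11% of all genes were higher. In HCT116, 20 reached 100 counts, 14 were higher, 0 lower and 6 neither, with a median of 6.51, where 9.63% of all genes were higher. All 14 in HCT116, and the 8 in H1299 except DDX43 (104 counts with DMSO), reached 100 counts only after treatment, so these counts are a description. By ratio, with genes at 0 set to their bound, the 3 highest in H1299 were MAGEB2 (0 to 4397 counts), BRDT, a testis bromodomain gene (0 to 1719), and DDX4, a germ cell RNA helicase (1 to 361). In HCT116 they were DDX43, another helicase (1 to 494 counts), BRDT (4 to 1330) and MAGEA4 (0 to 624), whose bound of 8.39 cannot be ordered against that of MAGEC2 (0 to 617 counts, at least 8.37). Bounds do not order genes, so these ranks only choose the names given. MAGEB2 was already at 64.1 CPM in untreated HCT116 cells and at 70.6 CPM in treated ones, and MAGEA4 was at 139 and 155 CPM in H1299.

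Peptides of these proteins reach the cell surface through the class I presentation genes, of which 10 of 11 were listed. In H1299, 0 of 9 with 100 counts were at least 4-fold higher or lower, with a median log2 ratio of 0.65, where 11% and 0.349% of all genes were higher and lower. In HCT116, PSMB8 (35 to 107 counts, log2 ratio 2.30) and PSMB9 (230 to 669, 2.23), subunits of the immunoproteasome, were higher, and TAPBP, the tapasin gene (2045 to 176, -2.85), was lower. The other 7 were neither, and the median over 10 genes was 0.11. Of all genes 9.63% were higher and 3.69% lower in HCT116, and nothing is read from the small counts of this list.

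The genes whose level over the 4 libraries was nearest to PAGE5, the antigen gene with most counts, were C7orf71, NPTX2, STMN2, RASD1 and HIST3H3. Their distances were 0.308 to 0.518 in log2(CPM + 1) over 4 libraries, among 15504 genes with at least 100 counts in a library. C7orf71 had no count without treatment and 513 (H1299) and 1469 (HCT116) counts after it. NPTX2, a neuronal pentraxin gene, had 18 and 0 counts with DMSO and 546 and 1781 with DAC+SB. The remaining genes had at most 13 counts in a DMSO library and between 495 and 1588 counts in a treated one.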

How the data were processed

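The data were 2 tables of raw counts, 1 of genes and 1 of TE, each with a feature, a cell and a count per row, as deposited. Per the submitters' processing notes, CASAVA, STAR and GRCh38 (hg38) were used, with no role given. Per the labels' protocols, read 1 carries a cell barcode and a molecular identifier. Whether the deposited counts are of identifiers, and the annotation, counter and cell filter, are steps not given in the sources used here. Cell names carry the library name, which placed all 15289 cells. Counts were summed per gene name and library and scaled to the sum of all gene and TE counts of the library, as CPM. Joined names were left out. Intervals are exact Poisson (levels), Clopper-Pearson (shares) and conditional binomial (ratios) 95% intervals. Those of levels and ratios take each count as independent and can be too narrow where counts clump in few cells. Genes were called at 100 counts in the higher library and a ratio of at least 4 or at most 0.25. Ratios and their intervals were tried on simulated Poisson counts of genes with at least 100 counts with DMSO. None of the 10 antigen genes had that many, so the trial does not cover their ratios and bounds. Cells were thinned to 3300 counts, and no doublet caller was run. Promoters came from RefSeq (GRCh38.p14) and positions from GENCODE v29, by symbol. Antigen genes, lists and markers were chosen with earlier results of these data known. Named were all 10 antigen genes, relatives with 100 counts, the 3 highest other antigens per line, up to 3 presentation genes and the 5 genes nearest to PAGE5. Tools were Python 3.11.15, numpy 2.4.6, pandas 2.3.3, scipy 1.17.1 and, for TMM factors only, edgeR 4.0.16. Alternatives concerned scaling, numbered entries, joined names, cells, thresholds and pooling.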

Additional observations from a re-analysis of the deposited data

Results flagged for a closer look

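GAGE12J, GAGE1 and XAGE1B had ratios of opposite sign in the 2 lines. The log2 ratio of DAC+SB over DMSO for GAGE12J was -1.09 (-2.97 to 0.55) in H1299 and 9.70 (8.15 to 11.98) in HCT116. For GAGE1 it was -0.74 (-1.08 to -0.41) in H1299 and at least 3.62 in HCT116, the latter from 23 treated counts. For XAGE1B it was -0.0108 (-0.27 to 0.25) in H1299 and at least 5.39 in HCT116, from 78 treated counts. The difference between the lines was not tested, since each group was 1 library, and the H1299 intervals of GAGE12J and XAGE1B include no change.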

How the results depend on the processing

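With unlisted numbered entries set to 9 counts, an alternative chosen after seeing the data, the summed log2 ratio was 3.67 in H1299 and 6.43 in HCT116. With numbered entries used only where both libraries of a line listed them, it was 2.99 and 5.94, and 3 genes in place of 6 were at least 4-fold higher in HCT116, where 9.82% in place of 13.3% of all genes were past 4-fold in either direction. Shares of cells with an antigen count depended on depth and were 3.91%, 36.5%, 0.328% and 50.5% without thinning (H1299 DMSO, H1299 DAC+SB, HCT116 DMSO, HCT116 DAC+SB). Of the treatment ratios of single genes under the alternatives, 144 stayed within the counting interval of the reported value (for bounds, within 0.5 on the log2 scale), 20 did not and 0 changed direction. Apart from SSX2 in HCT116, those that did not all came from how numbered entries were handled. Adding joined names could change no ratio, since no joined name contains these genes, so the number that stayed is not a measure of robustness. Median-of-ratios scaling raised the median of all genes by 0.18 in H1299 and 0.31 in HCT116, and the summed ratios to 4.23 and 8.51. No paired analysis was possible within a line because its groups share only 1 replicate number. The lack of replicates, and copies that share sequence, limit what these values show about the conditions or about single copies.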
